A study of Mus musculus with 18 samples.

Results

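The genes described here are the matrix metalloproteinases (Mmp), the ADAM, ADAMTS and ADAMTS-like genes (Adam) and the tissue inhibitors of metalloproteinases (Timp) of the mouse heart. They were taken by symbol, as every gene whose name starts with Mmp or Timp and a digit, or with Adam. Of 85 such genes in GENCODE M21, 39 had a transcript in the files, out of 13592 genes in all. They were 9 ADAM, 11 ADAMTS, 5 ADAMTS-like, 10 MMP and 4 TIMP genes. The other genes of the annotation, among them Mmp8, Mmp12, Mmp13, Mmp24, Adam8, Adam33, Adamdec1, Adamts4 and Adamts20, were not analysed here. RNA was measured by sequencing in cardiac tissue of wild-type mice after 28 days of treatment. One group received angiotensin II (AngII, a vasoconstrictor peptide, at 500 ng per kg per min) together with ethoxysanguinarine (ETH, a plant alkaloid, at 10 mg per kg per day). Another received AngII alone at that dose, and the control group received saline. Each of the 3 groups has 6 libraries, and the labels give no age, sex or strain. They do not say that the 6 libraries of a group come from different mice, and a p-value here therefore reflects the spread between libraries, which may be technical. The labels name no heart chamber.

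Matrix metalloproteinases are zinc enzymes that cut collagens, gelatin, proteoglycans and other proteins outside the cell. ADAM proteins sit in the cell membrane and release the outer part of growth factors, cytokine receptors and Notch, while ADAMTS enzymes are secreted and cut procollagens and proteoglycans such as versican, and ADAMTS-like proteins share their ancillary domains but lack the protease. TIMPs bind these enzymes and block them, Timp3 with the widest range, and in the heart the balance of proteases and TIMPs is known for its part in matrix turnover after pressure overload.

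The promoters of 4 members are shown because 3 of these genes, Timp2, Timp3 and Mmp14, varied together between libraries while Timp4 did not follow them. Each stretch holds 300 bases around the gene's start and comes from RefSeq on GRCm38.p6, 5′ to 3′ on the strand of the gene. They lie at chr11:118355362-118355661 on the minus strand for Timp2, chr10:86300162-86300461 on the plus strand for Timp3, chr6:115252156-115252455 on the minus strand for Timp4 and chr14:54431348-54431647 on the plus strand for Mmp14. Capitals mark the GC box, searched as GGGCGG on both strands.
Timp2: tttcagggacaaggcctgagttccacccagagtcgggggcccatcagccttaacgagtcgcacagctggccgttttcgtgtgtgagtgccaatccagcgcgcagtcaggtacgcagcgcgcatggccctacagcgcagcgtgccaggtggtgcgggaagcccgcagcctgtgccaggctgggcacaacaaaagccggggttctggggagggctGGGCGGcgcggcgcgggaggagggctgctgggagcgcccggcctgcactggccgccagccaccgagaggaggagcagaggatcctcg
Timp3: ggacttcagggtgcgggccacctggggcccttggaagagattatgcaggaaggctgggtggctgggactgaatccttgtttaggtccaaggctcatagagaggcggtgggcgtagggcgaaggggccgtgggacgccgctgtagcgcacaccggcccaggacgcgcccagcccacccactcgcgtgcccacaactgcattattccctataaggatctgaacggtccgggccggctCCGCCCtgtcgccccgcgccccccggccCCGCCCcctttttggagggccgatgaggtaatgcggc
Timp4: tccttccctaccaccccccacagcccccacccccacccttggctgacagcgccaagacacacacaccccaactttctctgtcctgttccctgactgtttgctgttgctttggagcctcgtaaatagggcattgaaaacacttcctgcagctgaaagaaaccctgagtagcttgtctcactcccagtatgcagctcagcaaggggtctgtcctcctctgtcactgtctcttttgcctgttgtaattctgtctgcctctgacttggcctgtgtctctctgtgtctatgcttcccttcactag
Mmp14: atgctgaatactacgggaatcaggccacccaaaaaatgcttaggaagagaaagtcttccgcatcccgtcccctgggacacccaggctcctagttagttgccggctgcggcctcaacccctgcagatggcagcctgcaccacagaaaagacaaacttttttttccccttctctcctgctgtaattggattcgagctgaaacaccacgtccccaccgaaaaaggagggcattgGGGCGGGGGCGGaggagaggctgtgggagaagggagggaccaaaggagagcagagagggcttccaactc
The GC box occurred once in the Timp2 stretch, at 2 places in those of Timp3 and Mmp14, and not in that of Timp4. It was present in 35.7% of 32851 mouse promoters of this length, and in 19 of the 21 tested members that have a promoter in the table. A TATA box (TATAAA), an AP-1 motif (TGANTCA) and a TEAD motif (CATTCC), also searched on both strands, were in none of the 4 stretches. They occurred in 13.6%, 7.81% and 14.7% of all promoters, and in 3, 2 and 2 of the 21 members. For all 4 motifs, the share of all promoters counts each promoter, whether or not its gene was tested. The members are counted by gene among those tested, so the shares are not alike. The share over all tested genes was not counted. The base composition was 68.7% G and C for Timp2, 67% for Timp3, 53.3% for Timp4 and 56% for Mmp14. A match is a match of letters only, and its absence says nothing about the factor.

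The libraries of every group differed in the heart chamber they resemble. All 6 cardiomyocyte markers, including Tnnt2 and Tnni3, were in the files and summed to 3571 to 11850 FPKM, the unit taken here for the deposited values, which counts fragments relative to transcript length and library size. The atrial myosin light chain gene Myl7 was at 0 in AngII+ETH replicate 4, AngII replicate 3 and saline replicate 5, and the ventricular light chain gene Myl2 was under 10 FPKM in AngII replicate 5 and saline replicate 6. A chamber marker level was therefore set as the mean log2(FPKM + 1) of Myl7, Myl4 and Sln minus that of Myl2 and Myl3, so that a high level stands for more atrial RNA. Its lowest value was -12.13 in the AngII+ETH libraries, -11.89 in the AngII libraries and -11.98 in the saline libraries, and the others lay between -4.24 and 7.15. Adipoq, an adipocyte hormone, was 0 to 20.4 FPKM in AngII+ETH libraries, 0.0418 to 2.04 FPKM in AngII libraries and 0.158 to 168 FPKM in saline libraries. Its highest values were in saline replicates 6 and 4, which also stood apart from the other saline libraries in smooth muscle markers. The smooth muscle myosin gene Myh11 was 113 and 130 FPKM there, against 9.04 to 12.5 in the other saline libraries, and the smooth muscle actin gene Acta2 was 574 and 632 FPKM, against 66.9 to 95.5. The sum of the 6 smooth muscle and pericyte markers was 1187 FPKM in saline replicate 6, and reached 983 FPKM in an AngII+ETH library. The AngII+ETH files hold another list of transcripts than the saline and AngII files, so a difference in how they were processed and the effect of ETH cannot be told apart. Depth was inferred from the steps between low values, at 63.9 to 80.9 fragments per library for each FPKM and kilobase. In bulk RNA, fewer cells of a type and less RNA per cell cannot be told apart.

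Of the 39 genes, 36 were in both transcript lists and 33 reached a group mean of 1 FPKM, the filter for testing. A gene that is high in 1 group only can pass that filter through it. The 33 were 6 ADAM, 9 ADAMTS, 4 ADAMTS-like, 10 MMP and 4 TIMP genes, and their levels are drawn for 12 of them in the plot of levels by library. Timp2 and Timp3 stood at the top with mean levels over all libraries of 110 and 108 FPKM, followed by Mmp2 at 54.9, then Mmp15, and Adam15 at 21.5 FPKM. Together Timp2, Timp3 and Mmp2 made up 35.7 to 58.9% of the summed FPKM of the members in a library. The 4 inhibitors alone made up 35.6 to 54.8% in AngII+ETH libraries, 35.3 to 52.0% in AngII libraries and 27.9 to 51.1% in saline libraries. At the other end Mmp9, Adamtsl3 and Adamts19 averaged 1.07, 0.99 and 0.936 FPKM.

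**Figure D1:**
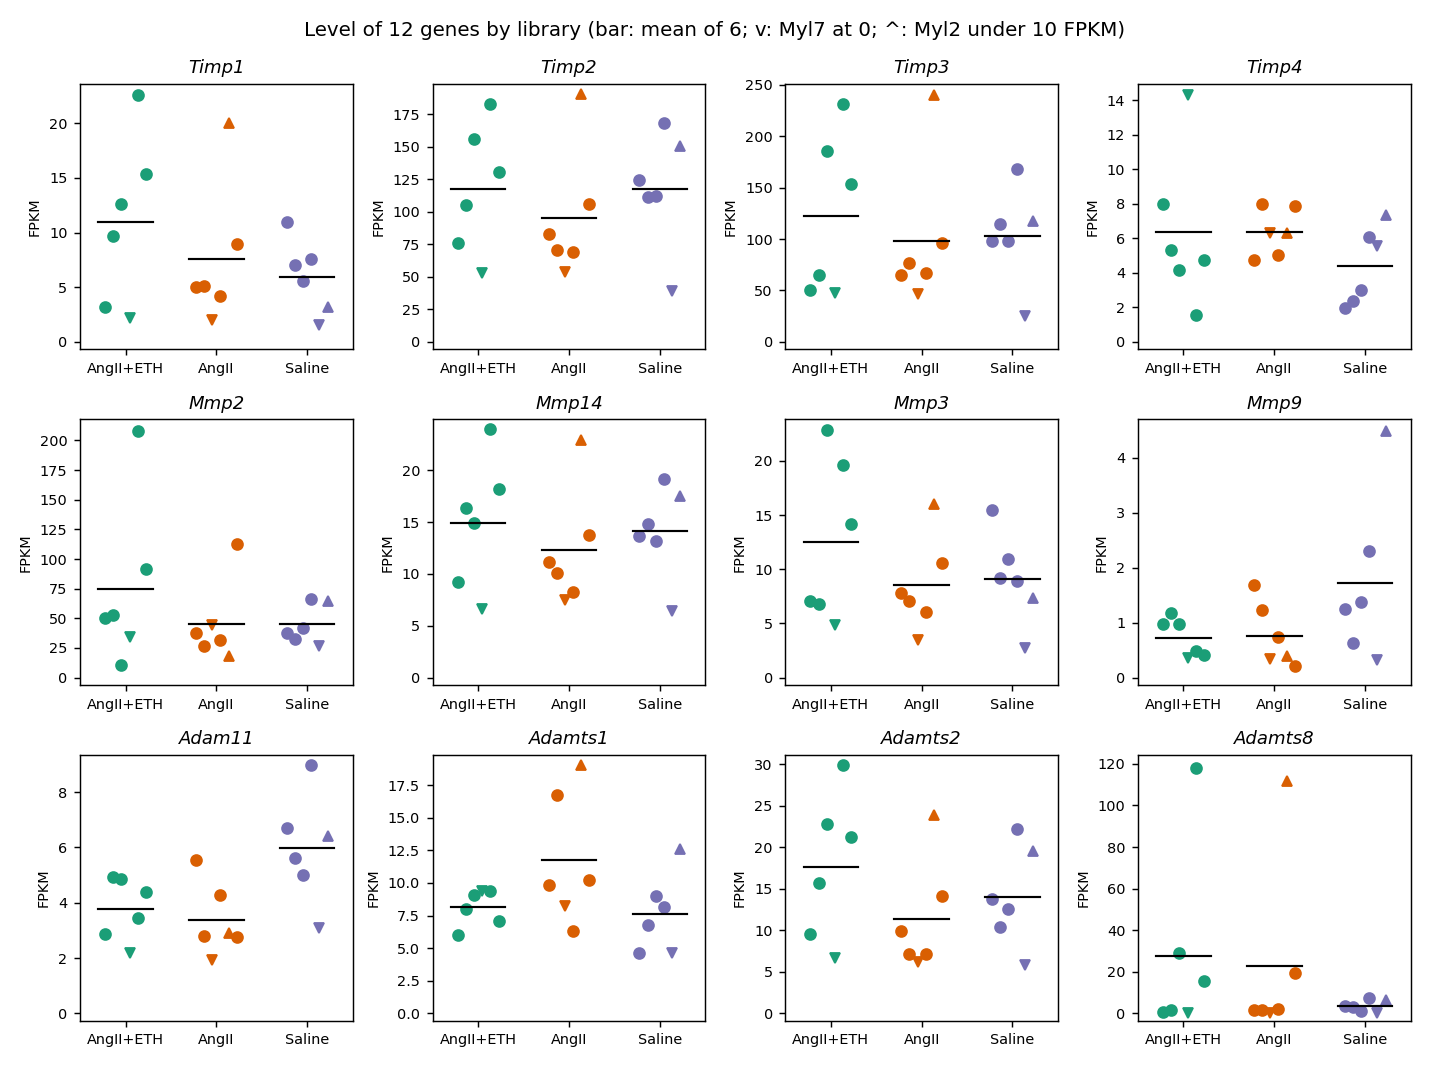
FPKM of 12 members in each library, by AngII+ETH, AngII and saline, with a bar for the mean of 6 libraries. Downward triangles are libraries with Myl7 at 0 and upward triangles those with Myl2 under 10 FPKM, and the 3 groups overlap in every panel.

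None of the 33 members changed between treatments past the threshold. A call needed an adjusted p under 0.05 (Benjamini-Hochberg) over the 11703 genes tested in limma on log2(FPKM + 1), a scale that understates the change of low genes. The background was close to empty as well. Of all genes, AngII against saline called 0.00854%, AngII+ETH called 0% against AngII and 0.00854% against saline. The smallest limma adjusted p of a member was 0.488, 1.0 and 0.599 in that order. At an unadjusted p under 0.05, AngII against saline held 3 members, beside 9.06% of all genes, of which 1 was higher (3.28% of all genes) and 2 were lower (5.78%). AngII+ETH against AngII held 0 members, beside 1.91% of all genes (1.26% higher, 0.649% lower). AngII+ETH against saline held 1 member, which was lower, beside 7.51% of all genes (3.5% higher, 4.01% lower). No member had groups that did not overlap in any of these comparisons, where 0.162% of all genes lay wholly higher and 0.197% wholly lower in AngII than in saline, 0.0342% and 0.0171% in AngII+ETH than in AngII, and 0.359% and 0.248% in AngII+ETH than in saline.

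The direction of the log2 fold changes differed between the comparisons, which share their AngII or their saline libraries. In AngII against saline 10 of 33 members were positive, beside 39.2% of all genes, with a median of -0.16 against -0.057 over all genes. In AngII+ETH against AngII 26 of 33 were positive, beside 56.8%, with a median of 0.15 against 0.020. In AngII+ETH against saline 19 of 33 were positive, beside 43.7%, with a median of 0.0083 against -0.034. These medians moved when 1 library was left out. For AngII against saline the median was -0.33 without saline replicate 5 and -0.077 without saline replicate 4, the ends of its range. For AngII+ETH against AngII it was 0.025 without AngII replicate 3 and 0.25 without AngII+ETH replicate 4. For AngII+ETH against saline it was -0.13 without saline replicate 5 and 0.10 without AngII+ETH replicate 1, and it was also negative without AngII+ETH replicate 2, 3, 5 or 6. With the adipocyte marker level as a covariate 25 of 33 members were positive for AngII against saline, with a median of 0.24 against 0.077 over all genes. Of the 33, 13 were positive for AngII+ETH against AngII, with a median of -0.027 against -0.030 over all genes. Saline replicates 6 and 4 were high in both adipocyte and smooth muscle markers, and the part of either in these values was not tested. Within groups the members had a median standard deviation of 0.53 log2 units against 0.32 over all tested genes. The group means ranged over more than the gene's own within-group standard deviation in 4 of 33 members, against 2855 of 11703 genes.

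**Figure D2:**
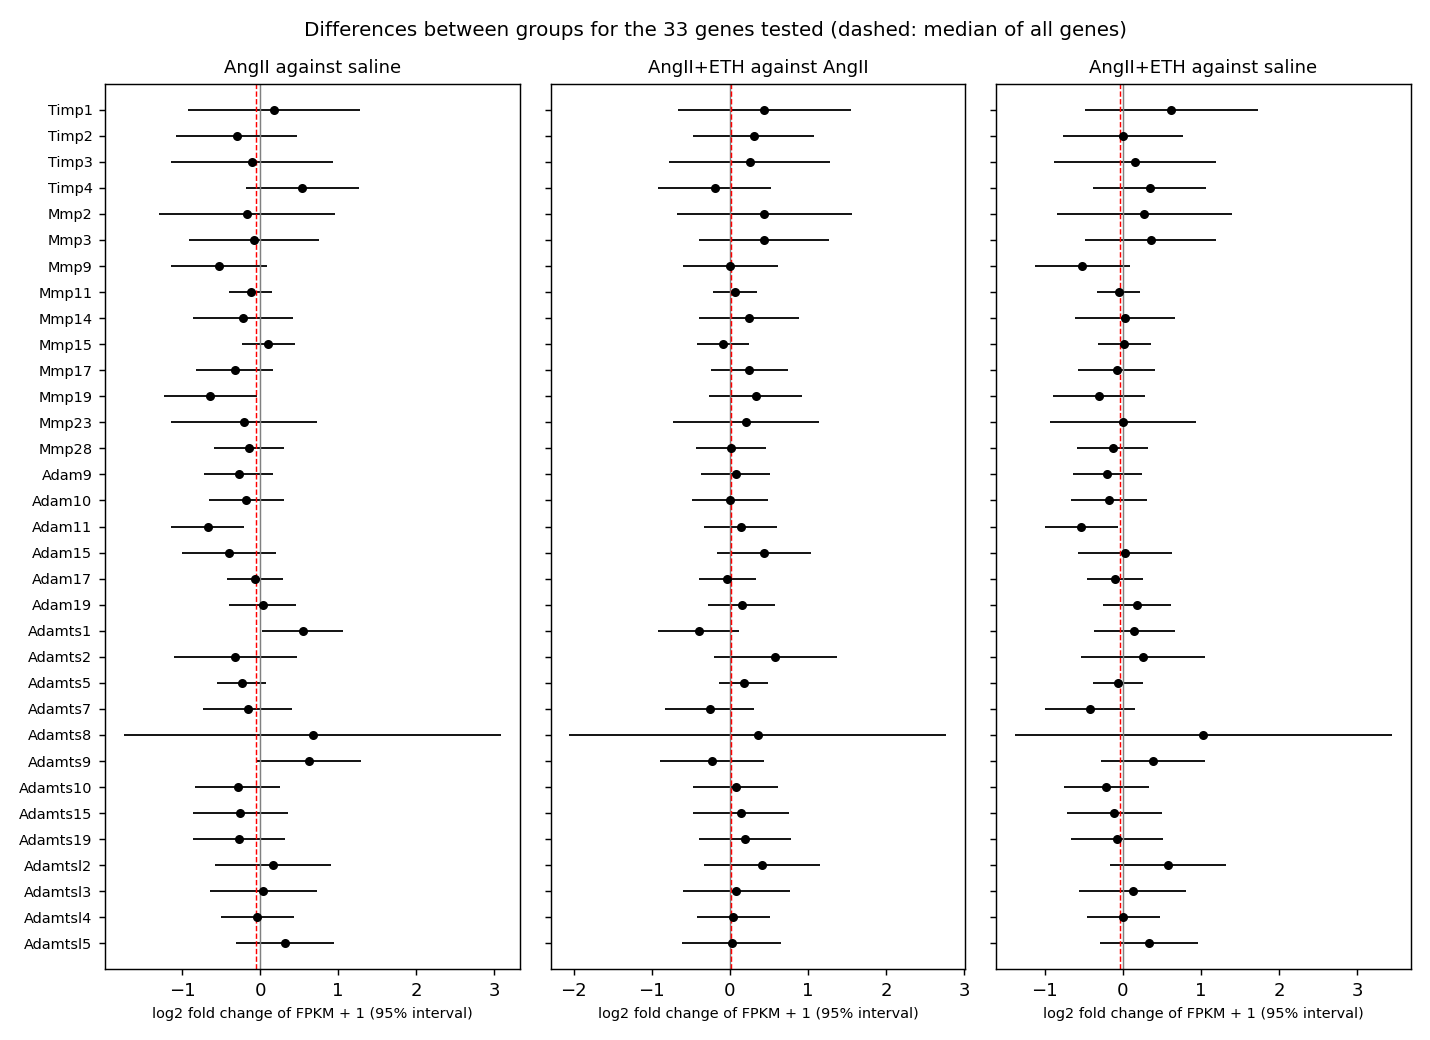
Log2 fold change of the 33 tested members on the log2(FPKM + 1) scale, in 1 panel per comparison, with 95% intervals of the limma fit and a dashed line at the median of all genes. The intervals exclude 0 for Adam11, Mmp19 and Adamts1 (AngII against saline) and Adam11 (AngII+ETH against saline), and no member passed the adjusted threshold.

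Among the inhibitors, Timp2, Timp3 and Timp1 had group means within their spread. Timp2, which also helps Mmp14 to activate Mmp2, ranged from 52.5 to 183 FPKM in AngII+ETH libraries (median 118), from 53.5 to 191 in AngII libraries (median 76.8) and from 39.1 to 168 in saline libraries (median 118). Timp3, which is held in the matrix, ranged from 47.0 to 232 FPKM in AngII+ETH libraries (median 109), from 46.6 to 241 in AngII libraries (median 71.8) and from 24.9 to 168 in saline libraries (median 106). The groups overlap over most of their range, and in each group the same library holds the lowest Timp2 and the lowest Timp3. Timp2 had a log2 fold change of -0.30 (SE 0.37) for AngII against saline and 0.31 (SE 0.37) for AngII+ETH against AngII, with limma adjusted p of 0.837 and 1.0. For Timp3 these were -0.099 (SE 0.49) and 0.25 (SE 0.49). Over the alternatives tried, AngII against saline gave -0.65 to 0.51 for Timp2, positive with the adipocyte level as a covariate, and -0.62 to 0.92 for Timp3, where 6 alternatives turned the sign. The sign of AngII+ETH against AngII turned for both genes with the adipocyte level. Timp1, the inhibitor that injury and inflammation are known to induce, averaged 10.9 ± 7.70 FPKM in AngII+ETH, 7.54 ± 6.53 in AngII and 5.97 ± 3.36 in saline libraries (mean ± SD, n = 6 each, as in all such values here). AngII+ETH against saline gave a log2 fold change of 0.62 for Timp1 (95% interval -0.49 to 1.73, limma adjusted p = 0.793). Timp1 is carried by a pair of transcripts in the files, and the shorter, ENSMUST00000009530 of 833 bases, made up 3.41 to 69.0% of it in AngII+ETH libraries, 0 to 81.6% in AngII libraries and 0 to 58.0% in saline libraries.

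Timp4, the TIMP known for its expression in the heart, had the lowest mean of the family over all libraries, although Timp1 had the lower median in AngII libraries. It ranged from 1.53 to 14.3 FPKM in AngII+ETH libraries (median 5.04), from 4.72 to 7.97 in AngII libraries (median 6.32) and from 1.95 to 7.37 in saline libraries (median 4.27). Both ends of its range are AngII+ETH libraries, replicate 4 at the top and replicate 5 at the bottom. The log2 fold change was 0.54 (SE 0.34) for AngII against saline, -0.19 (SE 0.34) for AngII+ETH against AngII and 0.35 (SE 0.34) for AngII+ETH against saline, with limma adjusted p of 0.671, 1.0 and 0.826.

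Of the gelatinases, which cut denatured collagen and basement membrane collagen, Mmp2 was the most abundant MMP. It ranged from 10.5 to 208 FPKM in AngII+ETH libraries (median 51.7), from 17.9 to 113 in AngII libraries (median 35.0) and from 26.8 to 66.5 in saline libraries (median 39.7). The saline libraries lie inside the range of both treated groups. Mmp2 had a log2 fold change of -0.17 (95% interval -1.29 to 0.96) for AngII against saline, 0.44 (-0.68 to 1.57) for AngII+ETH against AngII and 0.28 (-0.85 to 1.40) for AngII+ETH against saline. The first of these intervals takes in a fall of 1 log2 unit and the other 2 take in a rise of 1 log2 unit. Mmp9, the gelatinase of neutrophils and other white cells, was low, at 0.727 ± 0.351 FPKM in AngII+ETH, 0.763 ± 0.585 in AngII and 1.72 ± 1.52 in saline libraries. Its highest values were 4.48 FPKM in saline replicate 6 and 2.30 FPKM in saline replicate 4, the libraries with the highest Adipoq and Myh11, and the other saline libraries were at 0.317 to 1.37 FPKM. The log2 fold change of Mmp9 for AngII against saline was -0.53 (SE 0.29, limma adjusted p = 0.618), and 0.095 (SE 0.27) with the adipocyte level as a covariate.

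The remaining MMPs also had overlapping groups. Mmp3, a stromelysin that cuts proteoglycans and activates other MMPs, averaged 12.6 ± 7.49 FPKM in AngII+ETH, 8.51 ± 4.34 in AngII and 9.10 ± 4.18 in saline libraries. Mmp11, the stromelysin that furin activates inside the cell, was steady at 3.09 ± 0.597 FPKM in AngII+ETH, 2.91 ± 0.589 in AngII and 3.24 ± 0.622 in saline libraries. None of the classical collagenases was among the genes analysed. Of the membrane-type MMPs, Mmp14, the main activator of pro-Mmp2, ranged from 6.66 to 24.0 FPKM in AngII+ETH libraries (median 15.6), from 7.46 to 22.9 in AngII libraries (median 10.6) and from 6.42 to 19.1 in saline libraries (median 14.3). Mmp15 varied little, at 29.5 ± 5.79 FPKM in AngII+ETH, 31.2 ± 4.81 in AngII and 29.3 ± 6.95 in saline libraries. Mmp17, anchored by a lipid, was 0.638 to 1.62 FPKM outside saline, and reached 3.52 and 2.79 FPKM in saline replicates 6 and 4.

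Mmp19 had a low unadjusted p for AngII against saline and was highest in the saline libraries rich in Adipoq and Myh11. It was 0.888 to 3.31 FPKM in AngII+ETH libraries (median 2.25), 0.863 to 2.49 in AngII libraries (median 1.44) and 1.01 to 7.22 in saline libraries (median 2.39). AngII against saline gave Mmp19 a log2 fold change of -0.64 (SE 0.28, limma unadjusted p = 0.0374, adjusted p = 0.539), and saline replicates 6 and 4 were highest at 7.22 and 4.47 FPKM. The transcript ENSMUST00000219404 held 6.32 and 2.19 FPKM of these and was 0 to 0.498 FPKM in AngII libraries. It was at 1.65 FPKM in saline replicate 3 and at 0 to 0.0089 FPKM in the other saline libraries. In AngII+ETH replicates 1 and 3 it was at 1.55 and 2.08 FPKM, and at 0 to 0.00428 FPKM in the others of that group. Its share of Mmp19 ran from 0 to 100% in AngII+ETH libraries and from 0 to 87.5% in saline libraries. Fitted alone, this Mmp19 transcript gave -0.89 log2 units (SE 0.46, limma unadjusted p = 0.0666, adjusted p = 0.675), and the other, ENSMUST00000026411, gave -0.080 (SE 0.31, limma adjusted p = 0.961). With the adipocyte level as a covariate the gene had 0.14 (SE 0.17). Mmp23 averaged 12.2 ± 6.96 FPKM in AngII+ETH, 10.1 ± 6.11 in AngII and 11.5 ± 5.38 in saline libraries, and Mmp28, also called epilysin, 3.55 ± 0.869, 3.48 ± 0.596 and 4.20 ± 1.65 FPKM in the same groups.

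Among the ADAMs, the sheddases Adam10 and Adam17 showed no change past the threshold. Adam10, the constitutive sheddase of Notch, N-cadherin and others, averaged 12.3 ± 4.4 FPKM in AngII+ETH, 12.2 ± 3.85 in AngII and 13.9 ± 3.74 in saline libraries. Adam17, which releases tumour necrosis factor and ligands of the EGF receptor, averaged 7.98 ± 2.49 FPKM in AngII+ETH, 7.86 ± 1.02 in AngII and 8.24 ± 0.725 in saline libraries, and its log2 fold change for AngII against saline was -0.065 (95% interval -0.43 to 0.30). Part of Adam17 came from a transcript annotated for nonsense-mediated decay, with 0 to 52.1% of its FPKM in AngII+ETH libraries, 0 to 36.5% in AngII libraries and 0 to 37.4% in saline libraries. Another coding transcript of Adam17, ENSMUST00000101551, was only in the AngII+ETH list, and these values leave it out. It held 5.40 and 1.08 FPKM in AngII+ETH replicates 2 and 3, and 0 to 0.488 FPKM in the others of that group. Adam9 averaged 11.3 ± 3.92 FPKM in AngII+ETH, 10.3 ± 2.0 in AngII and 12.8 ± 2.93 in saline libraries. Adam15 averaged 24.0 ± 8.93, 17.8 ± 7.42 and 22.8 ± 5.78 FPKM in the same groups, and Adam19, known for its role in heart valve and septum formation in the mouse, 12.8 ± 3.33, 11.6 ± 4.10 and 11.1 ± 2.85 FPKM.

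Adam11, an ADAM without a working protease site that is known from neurons, had the smallest p of the members. It ranged from 2.20 to 4.92 FPKM in AngII+ETH libraries (median 3.91), from 1.93 to 5.54 in AngII libraries (median 2.86) and from 3.10 to 8.98 in saline libraries (median 6.02). Apart from saline replicate 5 at 3.10 FPKM, the saline libraries lay above every treated library but AngII replicate 1. Adam11 had a log2 fold change of -0.67 for AngII against saline (SE 0.22, limma unadjusted p = 0.00738, adjusted p = 0.488), 0.14 for AngII+ETH against AngII (SE 0.22) and -0.53 for AngII+ETH against saline (SE 0.22, limma unadjusted p = 0.0282, adjusted p = 0.599). Neither passed over all genes. Across the alternatives tried, the first of these stayed between -0.82 and -0.21, with limma adjusted p of 0.124 to 1.0.

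No ADAMTS gene passed the threshold. Adamts1, which cuts versican and inhibits vessel growth, was the member with the smallest p among those higher in AngII. It ranged from 6.04 to 9.40 FPKM in AngII+ETH libraries (median 8.53), from 6.33 to 19.1 in AngII libraries (median 10.1) and from 4.61 to 12.6 in saline libraries (median 7.46). The top values, 19.1 and 16.7 FPKM, were AngII replicates 5 and 2, and every AngII+ETH library lay below 4 of the 6 AngII libraries. Adamts1 had a log2 fold change of 0.55 for AngII against saline (SE 0.25, limma unadjusted p = 0.0405, adjusted p = 0.544) and -0.40 for AngII+ETH against AngII (SE 0.25, limma unadjusted p = 0.122, adjusted p = 1.0). Adamts9, a relative that also cuts versican, averaged 2.20 ± 1.18 FPKM in AngII+ETH, 2.67 ± 0.997 in AngII and 1.54 ± 1.12 in saline libraries and was listed at 0 in saline replicate 5. For AngII against saline its log2 fold change was 0.62 (SE 0.32, limma adjusted p = 0.582). Adamts5, an aggrecanase, was 3.71 ± 0.852, 3.15 ± 0.648 and 3.92 ± 1.00 FPKM in AngII+ETH, AngII and saline libraries.

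Adamts2, which removes the amino-terminal propeptide of procollagen, had the largest log2 fold change for AngII+ETH against AngII. It ranged from 6.63 to 29.9 FPKM in AngII+ETH libraries (median 18.5), from 6.20 to 23.8 in AngII libraries (median 8.57) and from 5.79 to 22.2 in saline libraries (median 13.2). The log2 fold change was 0.58 (95% interval -0.21 to 1.37, limma unadjusted p = 0.140, adjusted p = 1.0). Adamts7 was 1.17 ± 0.958 FPKM in AngII+ETH, 1.40 ± 0.337 in AngII and 1.78 ± 0.878 in saline libraries, with a 0 in AngII+ETH replicate 5. Adamts10, which binds fibrillin, was 3.47 ± 1.17, 3.31 ± 1.51 and 4.35 ± 2.20 FPKM in the same groups, and Adamts15 4.56 ± 2.10, 4.0 ± 1.79 and 4.92 ± 1.83 FPKM.

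The ADAMTS-like genes had overlapping groups too. Adamtsl2, a fibrillin-binding protein that is known to restrain TGF-beta, averaged 13.9 ± 7.03 FPKM in AngII+ETH, 10.4 ± 7.0 in AngII and 8.38 ± 2.62 in saline libraries. Its log2 fold change for AngII+ETH against saline was 0.58 (95% interval -0.16 to 1.32, limma adjusted p = 0.712), with AngII replicate 5 at 24.0 FPKM the highest library and saline replicate 5 at 3.92 FPKM the lowest. Adamtsl4, another fibrillin partner, averaged 14.2 ± 4.48, 13.6 ± 3.51 and 14.0 ± 3.62 FPKM in AngII+ETH, AngII and saline libraries, and Adamtsl5 8.90 ± 3.72, 8.43 ± 2.81 and 6.84 ± 3.37 FPKM. Adamtsl3 was listed at 0 in AngII+ETH replicate 6, AngII replicate 3 and saline replicate 5, and reached 3.07, 1.38 and 1.73 FPKM in those groups.

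Most of the members followed the heart chamber markers across libraries. In a fit with group and the chamber marker level as terms, the levels of 19 of 33 members rose with the atrial end of the level and 0 fell past the limma adjusted threshold, beside 33.4% and 7.76% of all 11703 genes (41.2% in either direction). A positive slope of any size was found in 29 of 33 members, beside 71.7% of all genes, with a median slope of 0.050 log2 units per unit of chamber level against 0.017. The 19 were Adam10, Adam11, Adam19, Adamts2, Adamts8, Adamts10, Adamts15, Adamts19, Adamtsl2, Adamtsl3, Adamtsl4, Mmp3, Mmp14, Mmp19, Mmp23, Mmp28, Timp1, Timp2 and Timp3. By class they were 3 of 6 ADAM, 5 of 9 ADAMTS, 3 of 4 ADAMTS-like, 5 of 10 MMP and 3 of 4 TIMP genes. Adamts8 had the steepest slope at 0.28 (SE 0.063, limma adjusted p = 0.00244), and the inhibitors Timp3, Timp1 and Timp2 followed with Mmp23. Timp2 had a slope of 0.11 (SE 0.012, limma adjusted p = 1.2e-05), Timp3 of 0.14 (SE 0.021, limma adjusted p = 0.000184), Timp1 of 0.13 (SE 0.027, limma adjusted p = 0.00125) and Mmp14 of 0.088 (SE 0.012, limma adjusted p = 5e-05).

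The members with negative slopes were Timp4 at -0.035 (SE 0.026), Mmp15 at -0.027 (SE 0.011), Adamts7 at -0.026 (SE 0.021) and Adam15 at -0.0074 (SE 0.023), none past the threshold. Their limma adjusted p was 0.294, 0.0584, 0.328 and 0.818. Mmp2, Adam17 and Adamtsl5 had slopes of 0.026, 0.0061 and 0.0075, with adjusted p of 0.656, 0.747 and 0.827 in the same limma fit. Summed over its transcripts, the protease Mmp2 thus had no detected slope while its activator Mmp14 and its inhibitors Timp2 and Timp3 had one. The difference between these slopes was not tested. Over the alternatives tried, the slope of Mmp2 ran from -0.038 to 0.26, with limma adjusted p of 0.304 to 0.93. In AngII replicate 5, at the highest chamber level (7.15), the main coding transcript of Mmp2 was low. It held 64.9% of the gene there, against a median of 98.4% over all libraries. Fitted alone, this main transcript, ENSMUST00000034187, had a slope of 0.012 (SE 0.048, limma adjusted p = 0.893). The retained-intron transcript ENSMUST00000211691 of Mmp2 had a slope of 0.069 (SE 0.025, limma adjusted p = 0.0663).

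**Figure D3:**
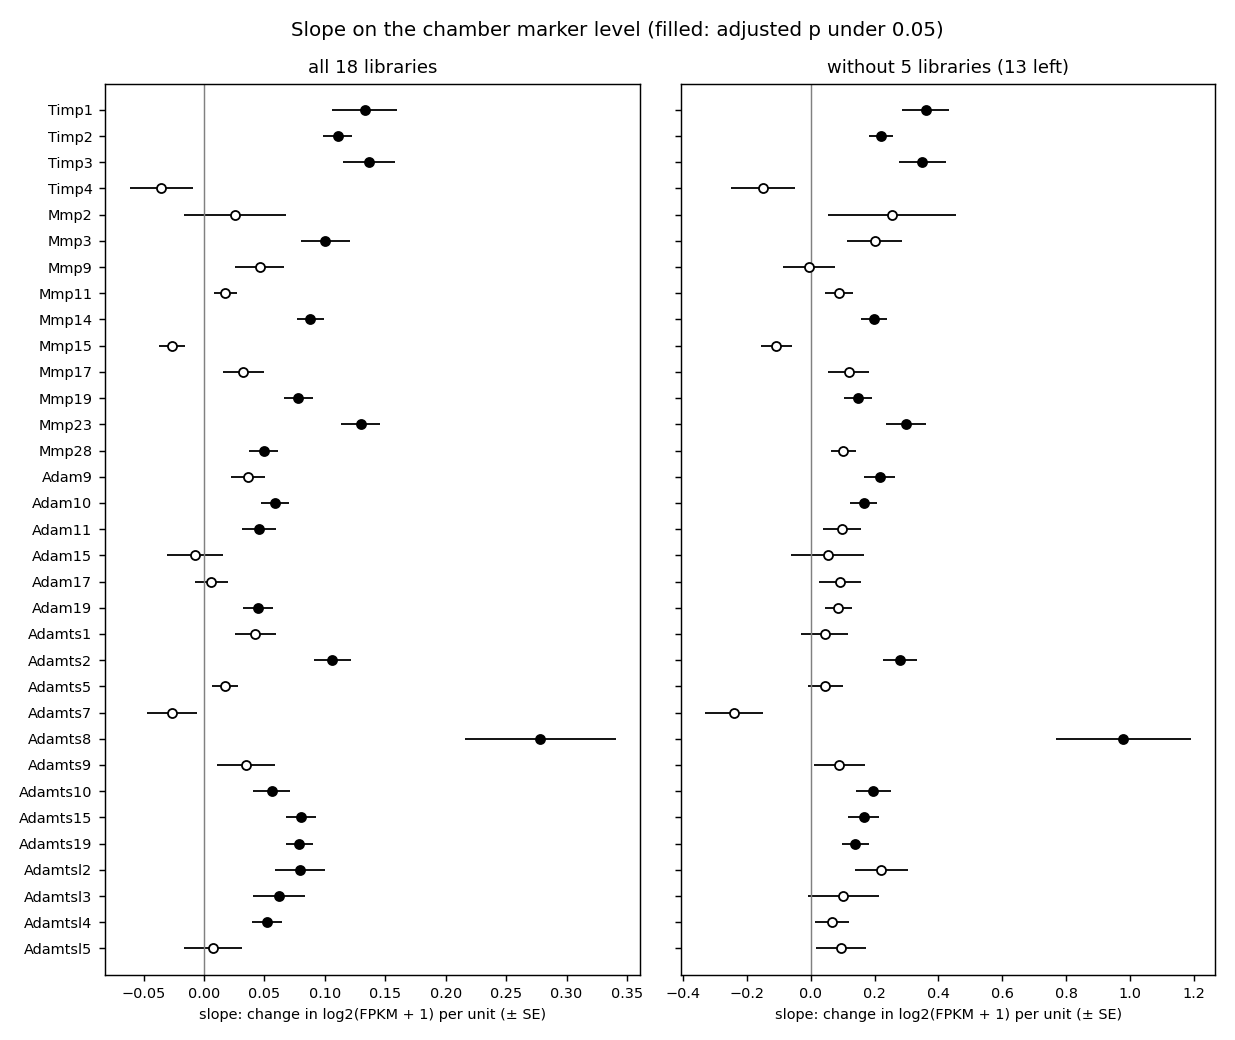
Slope on the chamber marker level (change in log2(FPKM + 1) per unit of level, ± SE) for the 33 tested members, over all 18 libraries (left) and over the 13 in which both Myl7 and Myl2 reached 10 FPKM (right), filled where past the adjusted threshold. Adamts8 is the steepest, at 0.28 over all libraries and 0.98 over the 13.

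The 3 libraries with Myl7 at 0 lay at the low end of many members. In AngII+ETH replicate 4, Timp2, Timp3, Mmp14 and Timp1 were at 52.5, 47.0, 6.66 and 2.14 FPKM. In AngII replicate 3 they were at 53.5, 46.6, 7.46 and 1.95 FPKM, and in saline replicate 5 at 39.1, 24.9, 6.42 and 1.5 FPKM. Each of these is the lowest value of its group. In all, 13 of 33 members were lowest of their group in each of these 3 libraries, beside 13.8% of all genes, and 0 were highest in each, beside 2.55%. The 3 libraries with the highest chamber level in their group were less alike, with levels of 1.07 in AngII+ETH, 7.15 in AngII and 6.72 in saline. They gave 0 members highest in each, beside 6.48% of all genes, and 0 lowest in each, beside 2.47%. With the 5 libraries left out that had Myl7 or Myl2 under 10 FPKM, 13 members rose with the level, of which 12 were among the 19, beside 10.9% of all genes. Among the 13 remaining libraries the slope of Timp2 was 0.22 (SE 0.037, limma adjusted p = 0.00871) and that of Timp3 was 0.35 (SE 0.074, limma adjusted p = 0.0161).

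**Figure D4:**
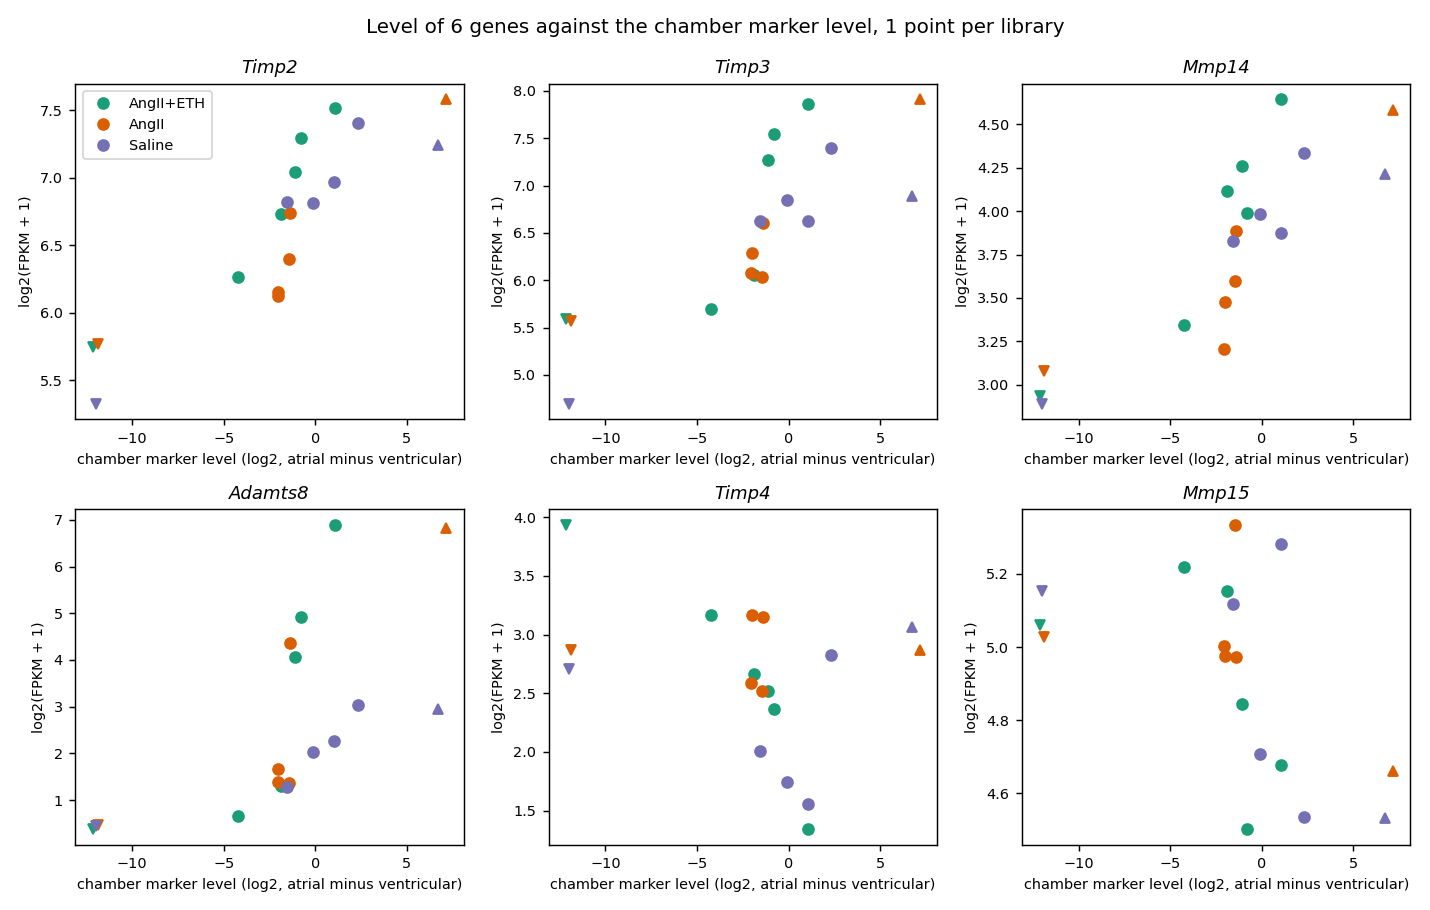
Level of 6 members as log2(FPKM + 1) against the chamber marker level (log2, atrial minus ventricular), 1 point per library coloured by group. Downward triangles (Myl7 at 0) sit lowest in their group for Timp2, Timp3, Mmp14 and Adamts8 but not for Timp4 and Mmp15, and upward triangles are the libraries with Myl2 under 10 FPKM.

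Markers of other cells moved with the chamber level as well. Of the 6 fibroblast markers, 5 (Col1a1, Pdgfra, Dcn, Lum and Tcf21) rose with it past the threshold, and none was at 0 in any library. Their sum was 387 FPKM in AngII+ETH replicate 4, against 618 to 1664 in the other AngII+ETH libraries, 412 FPKM in AngII replicate 3, against 594 to 1246 in the other AngII libraries, and 329 FPKM in saline replicate 5, against 826 to 1038 in the other saline libraries. All 5 adipocyte markers, 3 of 6 macrophage, 3 of 5 mast cell, 2 of 3 endocardial and 3 of 4 mesothelial and epicardial markers rose with the level too. Of 5 endothelial markers 1 rose and 2 fell, and of 6 smooth muscle and pericyte markers 2 rose and 1 fell. A fibroblast marker level was set as the mean log2(FPKM + 1) of Col1a1, Pdgfra, Dcn, Lum and Tcf21, without Col1a2. These are the markers that rose with the chamber level, so a fit with both levels cannot separate them. Without the fibroblast level, 33.4% of all genes had a positive slope past the threshold. With it added as a covariate, 0 of 33 members and 0.0256% of all genes had one. In that fit the slope of Timp2 was 0.052 (limma adjusted p = 0.179) and that of Timp1 was -0.025 (limma adjusted p = 0.690). With the adipocyte level as a covariate instead, 13 members rose, all among the 19, beside 12.3% of all genes.

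The scaling of the libraries also bears on the slopes. As deposited, 81.2% of all genes called had a positive slope, against 50.3% after median-of-ratios scaling and 44.6% after quantile normalization. Of the 19 members, 16 still rose under the first scaling and 13 under the second, beside 17.4% and 13.7% of all genes. Mmp15 had a negative slope past the threshold under both, and Adam11, Adam19 and Adamtsl3 lost their call under both.

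Adamts8, a secreted protease known for expression in lung and heart and for inhibiting vessel growth, varied most. It was at 118, 29.1 and 15.7 FPKM in AngII+ETH replicates 5, 3 and 6 and at 0.297 to 1.47 FPKM in the other 3 of that group. It was at 112 and 19.7 FPKM in AngII replicates 5 and 6 and at 0.383 to 2.17 FPKM in the other 4, and at 0.370 to 7.26 FPKM in the saline libraries. Every library above 10 FPKM came from a group given AngII, while the other 7 libraries of these groups lay below the highest saline library. The log2 fold change was 0.67 for AngII against saline (95% interval -1.74 to 3.08, limma adjusted p = 0.889) and 1.03 for AngII+ETH against saline (95% interval -1.38 to 3.44, limma adjusted p = 0.845). Over the alternatives tried, Adamts8 had -0.16 to 2.33 in the first of these, negative without AngII replicate 5, and 0.26 to 2.01 in the other. Bmp10, a right atrial growth factor named here after its values were seen, was listed at 0.0806 and 0.0324 FPKM in AngII replicates 5 and 6, and at 1.30, 3.14 and 158 FPKM in AngII+ETH replicates 5, 3 and 6. It was 330 to 381 FPKM in AngII replicates 1, 2 and 4, and ran from 0.0195 to 868 FPKM in the saline libraries. In AngII+ETH replicate 4, AngII replicate 3 and saline replicate 5 both genes were under 1 FPKM, and so they were in AngII+ETH replicate 1. Bmp10 was not alone in this. The natriuretic peptide gene Nppb was at 2004 and 527 FPKM in AngII replicates 5 and 6, and at 142 to 564 FPKM in the other AngII libraries. It was at 1482, 937 and 391 FPKM in AngII+ETH replicates 5, 3 and 6, at 126 to 245 FPKM in the others of that group, and at 74.7 to 220 FPKM in saline libraries. Nppa was highest in AngII replicate 5 and AngII+ETH replicate 5, at 44819 and 25672 FPKM. The part of the atrial side in the level of Adamts8, and its relation to Nppb and Nppa, were not tested.

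Mmp2 parted from Timp2 in single libraries. The ratio of Mmp2 to Timp2 was 0.0674 in AngII+ETH replicate 3 and 0.0937 in AngII replicate 5, against 0.502 to 1.14 in the other AngII+ETH libraries, 0.373 to 1.06 in the other AngII libraries and 0.294 to 0.686 in saline libraries. In these 2 libraries Mmp2 was at 10.5 and 17.9 FPKM while Timp2 was at 156 and 191 FPKM. The main coding transcript, ENSMUST00000034187, held 70.1 and 64.9% of Mmp2 there, against 96.0 to 99.6% in the other libraries. Its own level was 7.38 FPKM in AngII+ETH replicate 3 and 11.6 FPKM in AngII replicate 5, against 203 FPKM in AngII+ETH replicate 5, where Timp2 was at 183 FPKM. The Mmp2 transcripts ENSMUST00000211691 and ENSMUST00000211567 were not low there. They had their highest values, 3.94 and 2.34 FPKM, in AngII replicate 5, and were at 1.65 and 1.50 FPKM in AngII+ETH replicate 3. Reads assigned to assembled transcripts without a gene name were not counted to Mmp2, and their part in its low level was not tested.

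**Figure D5:**
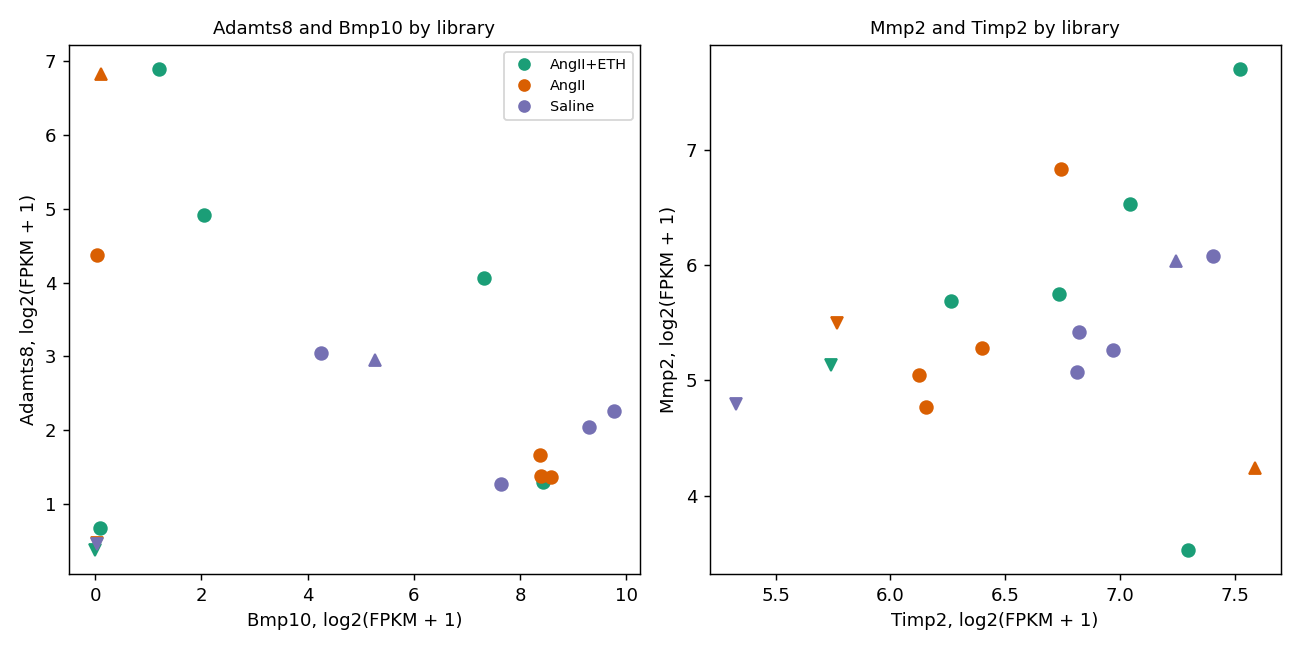
Left, Adamts8 against Bmp10, and right, Mmp2 against Timp2, both as log2(FPKM + 1), 1 point per library coloured by group, with downward triangles for Myl7 at 0 and upward triangles for Myl2 under 10 FPKM. Adamts8 at 112 and 118 FPKM stands with Bmp10 under 2 FPKM, and Mmp2 at 10.5 and 17.9 FPKM stands with Timp2 at 156 and 191 FPKM.

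Regulators, partners and substrates of these enzymes were read from a list of 71 genes, of which 58 were tested. None passed the threshold between treatments. At an unadjusted p under 0.05, 2 were higher and 7 lower for AngII against saline, beside 3.28% and 5.78% of all genes. AngII+ETH against AngII held 1 higher and 0 lower, beside 1.26% and 0.649%, and for AngII+ETH against saline 2 were higher and 1 lower, beside 3.5% and 4.01%. Hbegf, a growth factor that Adam17 and other ADAMs release, averaged 10.3 ± 5.71 FPKM in AngII+ETH, 10.9 ± 9.59 in AngII and 4.17 ± 1.44 in saline libraries. Hbegf had a log2 fold change of 1.04 for AngII+ETH against saline (SE 0.38, limma unadjusted p = 0.0138, adjusted p = 0.521) and 0.94 for AngII against saline (SE 0.38, adjusted p = 0.512). Cx3cl1, a chemokine shed by Adam10 and Adam17, had a log2 fold change of 0.54 for AngII+ETH against saline (limma adjusted p = 0.548). Tspan33, a tetraspanin partner of Adam10, was at -0.48 for AngII against saline and at -0.40 for AngII+ETH against saline (limma adjusted p = 0.488 and 0.654).

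Of the other matrix genes on that list, the mast cell protease gene Mcpt4 was at -1.21 (SE 0.38) and the lysosomal protease gene Ctsb at -0.43 (SE 0.15) for AngII against saline, with limma adjusted p of 0.486 and 0.488. For AngII+ETH against AngII the smallest p were those of Fbn1, which encodes fibrillin-1 and had a log2 fold change of 0.79 (SE 0.30), Fap (0.28, SE 0.15) and Thbs2 (0.49, SE 0.26), all with an adjusted p of 1.0 in limma. On the chamber marker level 34 of 58 list genes rose and 3 fell past the limma adjusted threshold, beside 33.4% and 7.76% of all genes. Among the 34 were Reck, a membrane inhibitor of MMPs, with a slope of 0.097, Lrp1, the receptor that clears TIMPs and ADAMTS enzymes, with 0.099, Serpine2 with 0.092, Tgfa with 0.064 and the proteoglycan gene Bgn with 0.12. The 3 that fell were Bsg, an inducer of MMPs, at -0.049, Papln at -0.046 and the endothelial cadherin gene Cdh5 at -0.026.

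Genes outside the tests were low. Adam22, a neuronal ADAM without protease activity, was 0 to 1.86 FPKM, Adamts3 was 0 to 1.47 FPKM and Adamts12 was 0.342 to 1.34 FPKM over all libraries. Adam12 and Adam23 had a transcript in the saline and AngII list and not in the AngII+ETH list, and Adamtsl1 in the AngII+ETH list and not in the other, so they could not be compared with all groups. Adam12 was at 2.66 and 1.04 FPKM in saline replicates 6 and 4. It was at 0.0826 to 0.181 FPKM in the other saline libraries and at 0.0441 to 0.235 FPKM in AngII libraries. Adam23 was at 0.182 to 1.09 FPKM in saline and AngII libraries, and Adamtsl1 at 0 to 1.24 FPKM in AngII+ETH libraries. Some tested members also had a transcript in only 1 of the lists, which their sums leave out. These were ENSMUST00000101551 of Adam17 and ENSMUST00000173030 of Adamts10 in the AngII+ETH list, and ENSMUST00000134996 of Adamts7 in the other.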

How the data were processed

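The 18 mouse cardiac tissue libraries were made with NEB kits after removal of ribosomal RNA, per the labels' protocols. The authors deposited 1 value for each transcript of a library, taken here as FPKM. The unit is an inference: scaled by transcript length, 44.2 to 56.6% of low values were whole within 0.05, and the length-weighted sum was 63.6 to 74.9% of its upper limit. The step was chosen in each library to make the share of whole values largest. No share for other steps was set beside it, and whole values alone cannot tell FPKM from other length-scaled units. The submitters' processing notes name limma. The sources used here give no aligner, assembler, genome build or annotation.

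The saline and AngII files list 30883 transcripts and the AngII+ETH files 30036, of which 28886 are common. Of these, 8239 assembled transcripts without a gene name (10.4 to 15.7% of the sum) were left out. The 20478 Ensembl transcripts matched to GENCODE M21 were summed to 12911 genes. Genes sharing reads with near-identical copies are uncertain. Fits used limma 3.58.1 (R 4.3.3), with its trend option, on log2(FPKM + 1) of the 11703 genes whose mean reached 1 FPKM in some group, all 18 libraries together, with Benjamini-Hochberg adjustment at 0.05. Chamber slopes came from the same fit with the chamber marker level added. Tables used Python 3.11.15 and pandas 2.3.3, plots matplotlib 3.10.9. Within groups, replicates correlated across genes at 0.863 to 0.969, and no pair was a copy.

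The members, lists, markers and chamber level were chosen with earlier results of these data known. Named genes were the better-known members, the 5 members with the smallest p in each direction, those past the threshold, those listed at 0 in some library, those in 1 transcript list, and the 3 pathway genes with the smallest p. Bmp10, Nppa, Nppb, Reck, Bgn, Bsg, Papln and Cdh5 were added after their values were seen. The fits were tested on simulated data. Alternatives covered scaling, pseudocount 0.1, filter, trend, weights, covariates, libraries left out and transcripts. Replicates were numbered in accession order.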

Additional observations from a re-analysis of the deposited data

Results flagged for a closer look

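In 8 of 99 groups of 6 values (33 members in 3 groups), 1 library lay apart from the other 5 by Dixon's test. Chance gives about 1 in 20 for independent groups, but these groups share their libraries and are not independent. The test was not run over all genes, so no share of all genes stands beside this count. All 8 were the low value of AngII replicate 3 or saline replicate 5, libraries with Myl7 listed at 0. Of all genes, 13.8% were lowest of their group in each of the 3 libraries with Myl7 at 0. In AngII replicate 3, Mmp28 was at 2.37 FPKM, against 3.40 to 4.02 FPKM in the other AngII libraries, and Adamtsl3 at 0, against 0.732 to 1.38 FPKM. In saline replicate 5, Timp2 was at 39.1 FPKM, against 111 to 168 FPKM in the other saline libraries, and Timp3 at 24.9 FPKM, against 97.7 to 168 FPKM. Mmp14 was at 6.42 FPKM there, against 13.2 to 19.1 FPKM in the other saline libraries. Adam10 was at 7.39 FPKM, against 13.6 to 17.8 FPKM, Adamtsl4 at 7.60 FPKM, against 13.2 to 17.6 FPKM, and Adamts19 at 0.0964 FPKM, against 0.967 to 1.76 FPKM.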

How the results depend on the processing

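No member passed the threshold between treatments under any alternative run. All genes passing for AngII against saline numbered 1 as reported, 2 with median-of-ratios scaling, quantile normalization, without the 5 chamber-marker-poor libraries (Myl7 or Myl2 under 10 FPKM), or without the 2 saline libraries with the highest Adipoq, 3 with array weights and 5 with the chamber level as a covariate. They numbered 0 with the adipocyte level, with both levels, in a fit of only the 2 groups and in a fit per transcript. For AngII+ETH against AngII the 0 genes became 1 without the 5 libraries. For AngII+ETH against saline the 1 gene became 4 with array weights, 21 with all transcripts of each file, 2 with both levels, without the 5 libraries, without the 2 saline libraries or per transcript, and 0 with the adipocyte level or in only the 2 groups. With all transcripts of each file, a transcript missing from a list was set to 0. A gene with a transcript in only 1 list can then differ between AngII+ETH and saline by construction. How many of the 21 are such genes was not counted. Leaving out 1 library at a time gave 0 to 11, 0 to 0 and 0 to 8 genes, the highest without saline replicate 5. The 1 gene for AngII against saline became 0 without saline replicate 1 or 4 or any 1 AngII or AngII+ETH library, and 2 without saline replicate 2 or 3. That for AngII+ETH against saline became 0 without AngII+ETH replicate 1, 3, 4, 5 or 6, and 2 without saline replicate 2 or 3. The chamber slope, with 4819 genes and 19 members, gave 1860 genes with the adipocyte level as a covariate, 1524 without the 5 libraries and 3205 with atrial markers alone as the level. It gave 3 genes and 0 members with the fibroblast level as a covariate, where Timp1 turned to -0.025 (limma adjusted p = 0.690). Leaving out 1 library gave 3302 to 4971 genes and 16 to 21 members. Adam11, Adamtsl3 and Mmp28 lost their slope call without saline replicate 5, and Adamtsl3 without AngII replicate 3 or AngII+ETH replicate 4. Without the 2 high-Adipoq saline libraries the negative slope of Timp4 passed (-0.069, limma adjusted p = 0.0286). The cause of these changes was not tested. No paired analysis was possible because the labels give no replicate numbers shared between groups. The fibroblast covariate, the atrial level and the fit without the 2 saline libraries were chosen after seeing the data. The 6 libraries a group and the spread between chambers limit what could be detected.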
